A study of Mus musculus with 15 samples.

Results

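Transcripts of 10 nuclear receptors, the retinoid X receptors Rxra and Rxrb and 8 receptors that pair with them, were followed in mouse whole blood. They were taken by gene symbol from a table of 55536 genes, and all 10 were found in it. No cut on their values was used, but earlier results of these data were known. The data are bulk RNA sequencing libraries of male C57Bl/6 mice aged 10 months, described as wild type, 1 library per animal. In the TBT group (n = 8) the mothers took up tributyltin (TBT) with their drinking water (3.07 µM) until weaning, a daily dose of 0.5 mg per kg of body weight. In the vehicle group (n = 7) the labels give exposure to vehicle. A liver tumor is labelled in the animal vehicle 3, and the labels of the other animals say nothing about tumors. The comparison asks which of these transcripts still differed in adult blood long after the exposure of the mother had ended.

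RXR proteins are transcription factors that bind DNA mostly as heterodimers, in which RXR is the shared partner of receptors for fatty acids (the PPARs), oxysterols (the LXRs), retinoic acid (the RARs), thyroid hormone and vitamin D. The dimers sit on repeats of a short hexamer, and a bound ligand exchanges corepressors for coactivators. TBT, an organotin, is known to bind RXR and PPAR gamma at low doses and to promote fat cell formation through them. In blood and bone marrow, retinoic acid receptor alpha is known for its part in granulocyte maturation, and LXR and PPAR gamma for lipid handling and gene control in macrophages.

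The libraries held 6.03 to 12.0 M gene counts (M, 1e6), 9.99 ± 1.18 M in TBT and 9.38 ± 1.67 M in vehicle (SD, n = 8 and 7). No difference between the groups in total counts, the haemoglobin share or the TMM scaling factor passed an exact two-sided permutation test over 6435 splits of the animals (adjusted p over the 3 measures from 0.936 to 0.993). TBT 2 and TBT 8 stood apart in their TMM factors of 0.404 and 0.528 and in summed platelet markers of 14450 and 14340 CPM (counts divided by the TMM-scaled library size in M), against 2406 to 4284 CPM in the other 6 TBT animals and 2561 to 6851 CPM in vehicle. A low TMM factor raises every CPM of its library, so the factors and the marker sums are not separate signs. The marker sums were not taken as CPM of all counts. Their haemoglobin shares were 50.8% and 44.5%, and vehicle 4 came close with 44.1%. Values are also given without TBT 2, TBT 8 and vehicle 6, a choice taken from earlier results of these data. Vehicle 6 had the lowest TMM factor in vehicle (0.736), which raises its CPM, and on that scale the highest platelet sum in vehicle (6851 CPM). Markers of blood cells were read in every library: each of the 8 genes of the erythroid, platelet, neutrophil, monocyte, B cell, T cell and NK cell lists had counts in all 15. Higher in TBT lay 8 of 8 monocyte (median log2 fold change 0.19), 7 of 8 erythroid (0.22), 6 of 8 neutrophil (0.068), 5 of 8 platelet (0.025), 5 of 8 NK cell (0.018), 4 of 8 T cell (0.0065) and 0 of 8 B cell markers (-0.22), and 0 of the 6 tested hepatocyte markers (-0.40), where 59.4% of all tested genes did. Of these markers 0 passed the test. By group medians of the summed CPM, erythroid markers were lower in TBT (286300 against 386100 in vehicle). So were platelet markers (3218 against 6293), B cell markers (973 against 1119), T cell markers (121 against 131) and hepatocyte markers (14.8 against 69.7). Monocyte, neutrophil and NK cell sums were higher. TBT 2 and TBT 8 had the largest erythroid sums, 1323000 and 892300 CPM, against at most 573900 CPM in vehicle. In whole blood, fewer cells of a type and less RNA per cell cannot be told apart.

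Of the receptors, Rara was the most abundant and Vdr the least by mean, and no receptor passed the test between TBT and vehicle blood. Rara encodes retinoic acid receptor alpha. Levels are compared between genes as CPM on TMM-scaled library sizes per kilobase of merged exons. On that scale Rara averaged 14.4 ± 2.56 in TBT and 14.6 ± 1.51 in vehicle (SD, n = 8 and 7). Nr1h2, the LXR beta gene that is active in most tissues, came next, with 7.10 ± 1.41 in TBT and 8.08 ± 0.564 in vehicle. Rxrb, the RXR beta gene, followed with 2.94 ± 0.713 in TBT and 3.21 ± 0.505 in vehicle. These 3 were clearly ordered, since Rara lay above Nr1h2, and Nr1h2 above Rxrb, in all 15 libraries and with no overlap of their ranges.

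Pparg and Rxra, the other receptor genes here whose proteins TBT is known to bind, came after Rxrb in the order per kilobase. Pparg averaged 1.94 ± 0.863 CPM per kb in TBT and 1.88 ± 0.900 in vehicle, and Rxra averaged 1.42 ± 0.467 in TBT and 1.44 ± 0.262 in vehicle (SD, n = 8 and 7). Ppard, the broadly active PPAR delta gene, averaged 1.28 ± 0.176 in TBT and 1.24 ± 0.135 in vehicle. The ranges of Rxrb, Pparg, Rxra and Ppard overlapped between neighbours, with the upper gene ahead in 13, 12 and 10 of 15 libraries going down the order. Thra, the thyroid hormone receptor alpha gene, averaged 0.759 ± 0.198 CPM per kb in TBT and 0.928 ± 0.304 in vehicle. Nr1h3, the LXR alpha gene of macrophages and liver, averaged 0.745 ± 0.470 in TBT and 0.569 ± 0.417 in vehicle, and Thra was ahead of Nr1h3 in 10 of 15 libraries. Ppara, the PPAR alpha gene of liver, heart and other fat-burning tissues, and Vdr, the vitamin D receptor gene, lay lowest, at 0.107 ± 0.148 and 0.0346 ± 0.0393 CPM per kb over all 15 libraries (SD). The order of these 2 was not clear, since Ppara was ahead of Vdr in 8 of 15 libraries and their ranges overlapped.

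**Figure D1:**
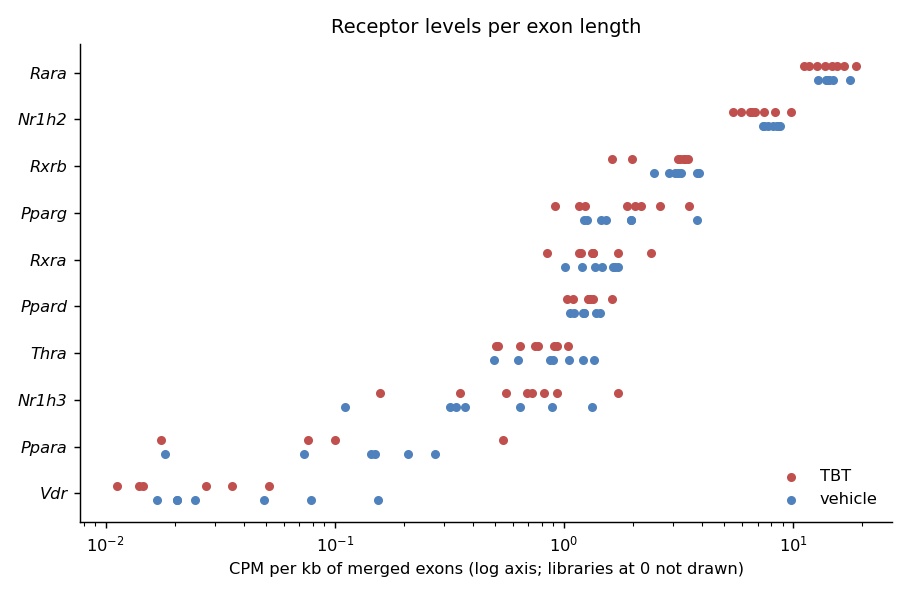
CPM per kilobase of merged exons on a log axis for the 10 receptors, ordered by mean, with 1 point per library, TBT (red) drawn above vehicle (blue) in each row; libraries with 0 counts are not drawn. Rara and Nr1h2 stand above all others, Rxrb to Nr1h3 form overlapping ranges, and Ppara and Vdr lie lowest.

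Over 13364 tested genes, edgeR's quasi-likelihood test called 0 at a Benjamini-Hochberg adjusted p under 0.05, a background of 0%. The smallest adjusted p of any gene was 0.207. Unadjusted, 846 genes had a p under 0.05, which is 6.33% of those tested. Of the 10 receptors 8 passed the filter on low counts, and 0 of these 8 passed the test, adjusted or unadjusted. Their edgeR adjusted p ran from 0.852 to 0.997. Of the 8, 3 had a log2 fold change above 0, where 59.4% of all tested genes did. The group ranges overlapped for every one of the 10 receptors, and 0.112% of all tested genes had ranges that did not overlap. All tested genes together had a median log2 fold change of 0.048, and the median 95% interval of a gene reached 0.41 log2 units to either side.

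**Figure D2:**
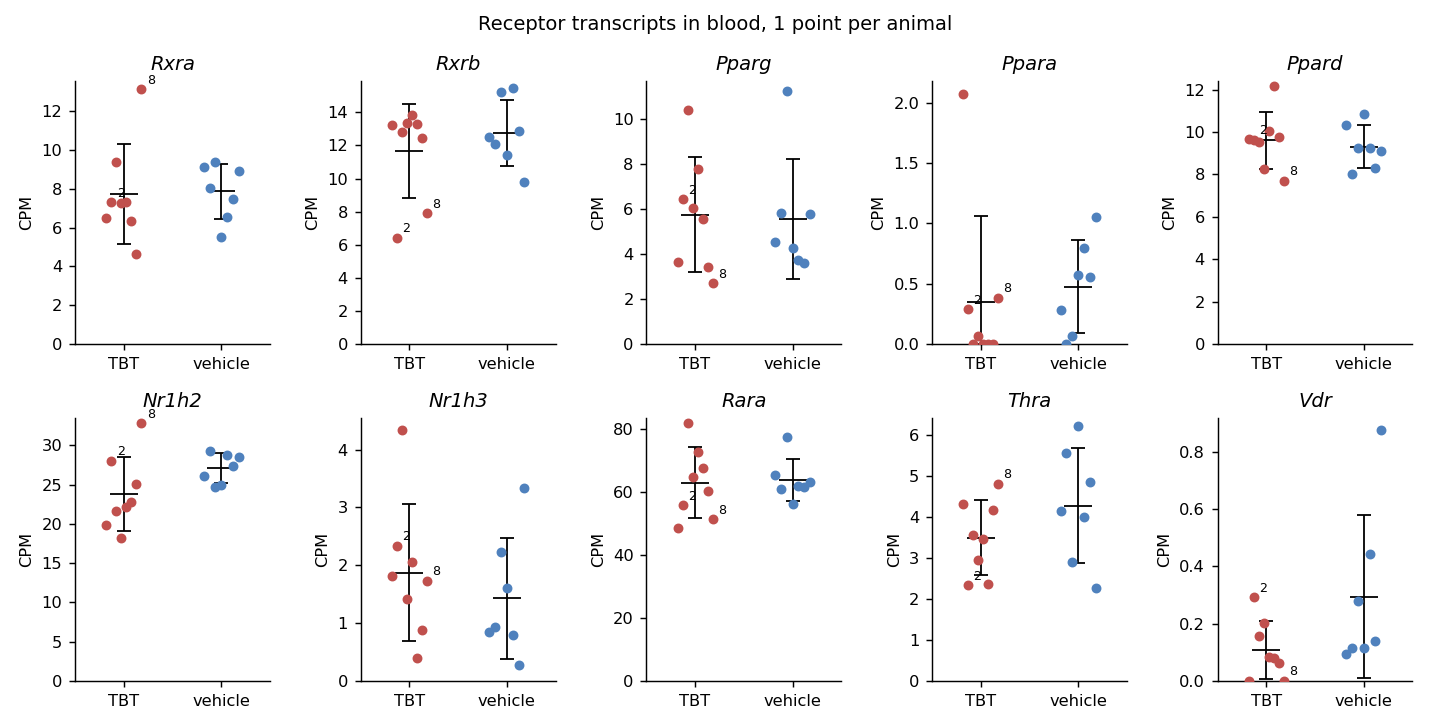
CPM of the 10 receptors, 1 point per animal, TBT (red, n = 8) left of vehicle (blue, n = 7), with mean and SD as bars, cut at 0 below; 2 and 8 mark those TBT animals. The groups overlap in every panel, and TBT 2 and TBT 8 lie lowest for Rxrb and, in TBT, highest for Nr1h2.

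Among the RXR genes, Rxra (ENSMUSG00000015846) lies on chromosome 2 at 27676440 to 27762957 in GRCm38 (mm10). In TBT its lowest, median and highest levels were 4.62, 7.27 and 13.1 CPM. In vehicle they were 5.54, 8.01 and 9.37 CPM. TBT 8 was highest of all libraries and TBT 7 lowest, so the vehicle range fell within the TBT range. Its log2 fold change was -0.043 (SE 0.187, 95% interval -0.44 to 0.35), with an edgeR adjusted p of 0.994, and it was -0.20 without TBT 8.

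Rxrb (ENSMUSG00000039656, chromosome 17 at 34031812 to 34038399) had a lowest, median and highest level of 6.42, 13.02 and 13.9 CPM in TBT. In vehicle these were 9.81, 12.5 and 15.4 CPM. TBT 2 at 6.42 CPM and TBT 8 at 7.91 CPM were the lowest of all 15 libraries, and the other 6 TBT animals lay between 12.5 and 13.9 CPM. The log2 fold change was -0.11 (SE 0.153, 95% interval -0.43 to 0.21; edgeR adjusted p = 0.972). Without TBT 2, TBT 8 and vehicle 6 it was 0.027.

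The balance of the RXR genes was read within each library, where scaling between libraries plays no part. Counts of Rxra were 0.371 to 1.66 times those of Rxrb in TBT and 0.425 to 0.911 times in vehicle. Rxra exceeded Rxrb in 2 of 15 libraries, TBT 8 (1.66 times) and TBT 2 (1.14 times). These libraries had the highest haemoglobin shares and, on TMM-scaled library sizes only, the highest platelet sums. The part of red cells and platelets in the ratio was not tested. On the log2 scale the ratio averaged -0.61 ± 0.73 in TBT and -0.71 ± 0.37 in vehicle (SD, n = 8 and 7), a difference of 0.098 that turned to -0.093 without TBT 8 and to -0.27 without TBT 2, TBT 8 and vehicle 6.

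**Figure D3:**
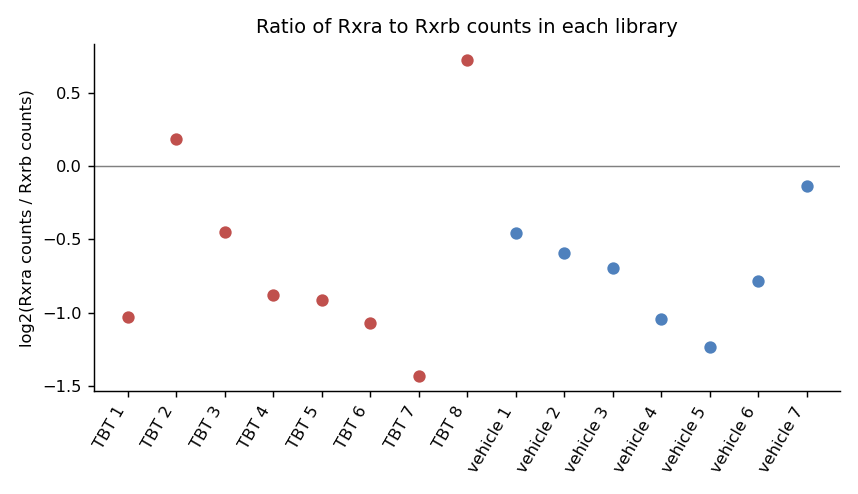
Log2 ratio of Rxra to Rxrb counts in each library, TBT (red) left of vehicle (blue), with a line at equal counts. TBT 2 and TBT 8 lie above the line, at 1.14 and 1.66 times, and the other 13 libraries lie below it.

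The PPAR genes differed in how far they varied between animals. Pparg (ENSMUSG00000000440, chromosome 6 at 115360951 to 115490399), the fat cell regulator and direct TBT target, had lowest, median and highest levels of 2.70, 5.79 and 10.4 CPM in TBT. In vehicle they were 3.60, 4.52 and 11.2 CPM. The highest values, in vehicle 3 (11.2 CPM) and TBT 3 (10.4 CPM), came from different groups. TBT over vehicle, the log2 fold change was 0.039 (SE 0.294, 95% interval -0.58 to 0.66; edgeR adjusted p = 0.997). It was 0.31 without vehicle 3 (the animal with the tumor label) and -0.15 without TBT 3. The coefficient of variation of Pparg over the libraries was 44.3%, against a median of 25.6% among 1140 tested genes within 1.2 times of its mean level.

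Ppard (ENSMUSG00000002250, chromosome 17 at 28232700 to 28301474) was the steadiest receptor on TMM-scaled library sizes. It ran from 7.72 to 12.2 CPM in TBT, with a median of 9.66, and from 8.01 to 10.9 CPM in vehicle, with a median of 9.23. Its coefficient of variation was 12.2%, and of 1155 tested genes at a like level 1.99% varied less (median 21%). Between the groups its log2 fold change was 0.049 (SE 0.113, 95% interval -0.19 to 0.29; edgeR adjusted p = 0.985), 1 of the 2 narrowest intervals of the 8 receptors beside that of Nr1h2.

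Ppara (ENSMUSG00000022383, chromosome 15 at 85734983 to 85802819) was too rare to be tested, with 28 counts over the TBT libraries and 28 over the vehicle libraries. TBT 1 alone held 24 counts (2.08 CPM), and the other 7 TBT animals held 0 to 2. The 7 vehicle animals held 0 to 9. A count of 0, seen in 4 TBT libraries and in vehicle 2, allows up to 3 counts, which is 0.190 to 0.247 CPM in those TBT libraries and 0.348 CPM in vehicle 2. These floors cover counting error only. TBT 1 also carried the highest sum of 8 hepatocyte markers in TBT, 520 CPM, where that sum ran from 2.72 to 520 CPM in TBT and 4.71 to 836 CPM in vehicle. Of these 8 markers 6 were at 0 in at least 1 library, and Alb and Trf were read in all 15. In vehicle, vehicle 4 had the highest hepatocyte sum with 5 Ppara counts, and vehicle 5 had 9 Ppara counts with a sum of 25.4 CPM. The part of liver RNA in the Ppara counts was not tested.

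Of the LXR genes, Nr1h2 (ENSMUSG00000060601, chromosome 7 at 44549616 to 44553951) had the smallest p of the 8 receptors. Its levels in TBT were 18.3 CPM at the lowest, 22.5 at the median and 32.8 at the highest. In vehicle these were 24.7, 27.4 and 29.3 CPM. In TBT 5 of 8 animals lay below every vehicle animal, TBT 7 lay within the vehicle range, and TBT 8 at 32.8 and TBT 2 at 28.0 CPM were the 2 highest of the group. Only these 2 TBT animals exceeded the vehicle median. As CPM of all counts, without TMM scaling, TBT 2 and TBT 8 lay lowest of all libraries, at 11.3 and 17.3 CPM. The log2 fold change was -0.19 (SE 0.113, 95% interval -0.43 to 0.042), with an unadjusted p of 0.101 and an adjusted p of 0.852 in edgeR. Without TBT 2, TBT 8 and vehicle 6 it was -0.33 (SE 0.0919), with an unadjusted p of 0.00227 in a fit where 17% of 13590 genes had an unadjusted p under 0.05, and an edgeR adjusted p of 0.0929 (0.0515% of genes passed the adjusted test there). With limma-voom and sample quality weights, which gave TBT 2 and TBT 8 the lowest weights of all libraries (0.261 and 0.237) and vehicle 6 a weight of 1.26, it was -0.34 (limma adjusted p = 0.0806). No fit called it.

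Nr1h3 (ENSMUSG00000002108, chromosome 2 at 91184061 to 91202834) was read with 2 to 56 counts per library. Its lowest, median and highest levels were 0.395, 1.78 and 4.35 CPM in TBT. In vehicle they were 0.277, 0.929 and 3.33 CPM. TBT 3 was highest in TBT and vehicle 7 in vehicle, and 6 of 8 TBT animals lay above the vehicle median. The log2 fold change was 0.39 (SE 0.464, 95% interval -0.58 to 1.37; edgeR adjusted p = 0.964), 0.041 without TBT 3 and 0.67 without vehicle 7. Counts of Nr1h2 were 4.98 to 99 times those of Nr1h3 over the 15 libraries, with a median of 12.5 times in TBT and 30.8 times in vehicle, and the ranges of the groups overlapped. The ratio of 99 came from vehicle 6, with 2 counts of Nr1h3. On the log2 scale the means differed by -0.68, TBT minus vehicle, and by -0.34 without TBT 2, TBT 8 and vehicle 6.

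**Figure D4:**
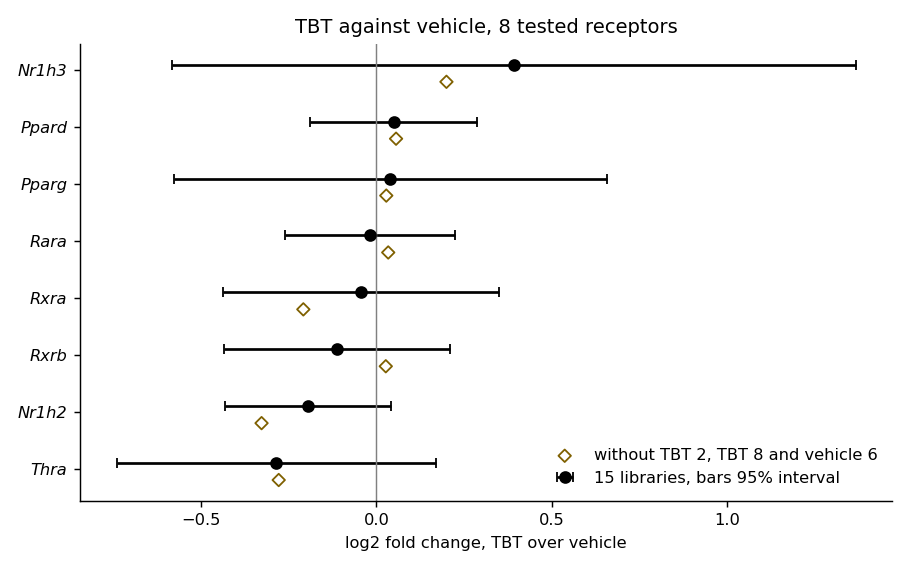
Log2 fold changes of TBT over vehicle for the 8 tested receptors (black, 15 libraries, bars 95% intervals from edgeR) and without TBT 2, TBT 8 and vehicle 6 (open diamonds). All black intervals include 0, and the diamond of Nr1h2 lies at -0.33 against -0.19 over all libraries.

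Rara (ENSMUSG00000037992, chromosome 11 at 98927818 to 98974942) was measured with 191 to 1113 counts per library. Its lowest, median and highest levels were 48.5, 62.4 and 81.8 CPM in TBT. In vehicle they were 56.0, 61.8 and 77.2 CPM. TBT 3 and vehicle 3 were the highest in their groups, as for Pparg, and 4 of 8 TBT animals exceeded the vehicle median. Its log2 fold change was -0.018 (SE 0.115, 95% interval -0.26 to 0.22; edgeR adjusted p = 0.996).

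Thra (ENSMUSG00000058756, chromosome 11 at 98740638 to 98769006) had lowest, median and highest levels of 2.34, 3.52 and 4.82 CPM in TBT. In vehicle they were 2.28, 4.14 and 6.23 CPM. The log2 fold change was -0.28 (SE 0.217, 95% interval -0.74 to 0.17; edgeR adjusted p = 0.904), and -0.17 without vehicle 4, the highest library. Thra shares 263 exonic bases, 5.70% of its merged exons, with the circadian repressor gene Nr1d1 on the other strand. Nr1d1 itself held 4 to 37 counts per library and averaged 1.73 ± 0.897 CPM in TBT and 1.14 ± 0.529 CPM in vehicle (SD, n = 8 and 7; log2 fold change 0.55, edgeR adjusted p = 0.897). Whether strand was used in the counting is not given in the sources used here, and reads from the shared bases may not have been told apart.

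Vdr (ENSMUSG00000022479, chromosome 15 at 97854425 to 97910630) held 9 counts over the 8 TBT libraries and 18 over the 7 vehicle libraries, at most 5 in a library, and was not tested.

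Over the libraries, Pparg and Rara went together most closely of the 28 pairs of tested receptors. Pearson's r of log2 CPM was 0.806 over 15 animals (permutation p = 0.00041, adjusted over 28 pairs 0.0115) and Spearman's rho was 0.679 (permutation p = 0.00675, adjusted 0.189). The relation thus passed the adjustment by r and not by rho. Without vehicle 3 and TBT 8, the animals farthest from the median of Pparg, r was 0.709 over both groups. Within the groups r was 0.836 in the 8 TBT and 0.808 in the 7 vehicle animals. In vehicle, vehicle 3 stood apart for both genes. It had 11.2 CPM of Pparg and 77.2 CPM of Rara, with 5.81 and 65.2 CPM as the next highest values. Whether the relation held in vehicle without that animal was not tested. No other pair passed by either measure. Vehicle 3 and TBT 3, highest for both genes, had summed monocyte markers of 826 and 1013 CPM, where that sum ran from 514 to 1013 CPM in TBT and 537 to 838 CPM in vehicle. Other libraries with high sums were not highest for these genes. TBT 8 had a sum of 965 CPM with 2.70 CPM of Pparg and 51.3 CPM of Rara. TBT 2 had 955 CPM with 6.42 and 55.8 CPM, and vehicle 7 had 838 CPM with 5.78 and 62.9 CPM. All 8 monocyte markers were read in every library, and their part in the relation was not tested.

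**Figure D5:**
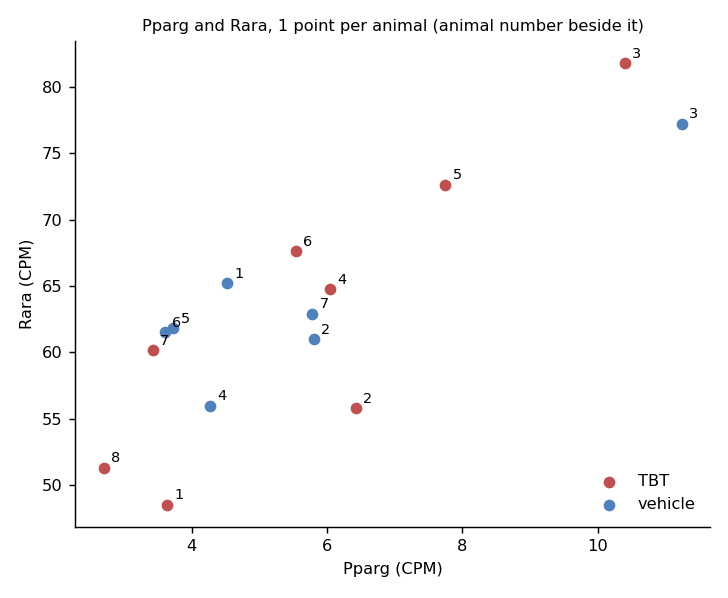
Pparg against Rara, both in CPM, 1 point per animal with its number, TBT red and vehicle blue; neither axis starts at 0. TBT 3 and vehicle 3 lie at the upper right, vehicle 3 apart from the other vehicle animals (r = 0.806 on log2 CPM over both groups).

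The genes whose log2 CPM followed each receptor most closely, out of at least 7910 protein-coding genes of 5 CPM or more, are given as a description over 15 libraries that share depth and scaling. For Pparg they were Itgax (r = 0.927), which encodes the CD11c integrin of dendritic cells and monocytes, and Sowahc (0.909). Among those that followed Rara most closely was Myo1f (0.938), a myosin gene of leukocytes. For Rxra they were Fam129b (0.907; 0.981 in TBT and 0.645 in vehicle) and Lyz2 (0.848), the lysozyme gene of macrophages and granulocytes. For Rxrb they were Ptma (0.964), the prothymosin alpha gene, and Cebpz (0.952), and for Ppard Trmt1l (0.832) and Rbm12 (0.801). For Nr1h2 they were Ap2a1 (0.887), an endocytic adaptor subunit, and Eif4ebp1 (0.863), a translation repressor, and r with Ap2a1 was 0.950 in TBT and -0.204 in vehicle. For Nr1h3 they were Gstm1 (0.826), a glutathione transferase gene, and Prdx1 (0.814), a peroxiredoxin gene. Thra was followed less closely, by mt-Atp8 (0.792) and Cntrob (0.739).

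Promoter windows were looked at because Pparg and Rara went together and because receptors of this class bind the hexamer AGGTCA. RefSeq windows of 300 bases on GRCm38.p6, from 250 bases before to 50 after a start, were matched by symbol for 9 receptors with 17 windows, Thra not among them. The hexamer, on either strand, was in 4 of the 17 windows (23.5%), against 16.3% of all 32851 windows, and each of the 4 is printed with it in capitals (TGACCT where it lies on the other strand). The Rxra window at chr2:27709042-27709341 (plus strand) holds it 48 bases before the start and, on the other strand, 87 bases before it. The Pparg windows at chr6:115360894-115361193 and chr6:115362099-115362398 (plus strand) hold it 28 and 9 bases before their starts. The Rara window at chr11:98964622-98964921 (plus strand) holds it 33 bases after the start. The printed Rxra window holds 1 CpG dinucleotide, the first Pparg window 44, the second 13 and the Rara window 6, where the median of all windows is 7. A match is a description of the letters and no evidence of binding. Gene counts do not show which start was used.
Rxra, second window: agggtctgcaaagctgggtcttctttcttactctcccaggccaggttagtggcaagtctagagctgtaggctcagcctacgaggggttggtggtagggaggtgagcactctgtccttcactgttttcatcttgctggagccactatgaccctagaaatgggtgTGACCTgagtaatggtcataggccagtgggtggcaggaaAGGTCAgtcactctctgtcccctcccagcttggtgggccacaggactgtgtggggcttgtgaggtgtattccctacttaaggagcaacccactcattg
Pparg, first window: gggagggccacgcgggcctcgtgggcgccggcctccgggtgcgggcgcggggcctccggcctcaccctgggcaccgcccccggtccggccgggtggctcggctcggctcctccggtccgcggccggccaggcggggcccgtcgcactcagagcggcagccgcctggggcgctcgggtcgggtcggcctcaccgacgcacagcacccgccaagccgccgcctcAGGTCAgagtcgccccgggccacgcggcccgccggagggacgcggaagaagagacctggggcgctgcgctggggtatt
Pparg, second window: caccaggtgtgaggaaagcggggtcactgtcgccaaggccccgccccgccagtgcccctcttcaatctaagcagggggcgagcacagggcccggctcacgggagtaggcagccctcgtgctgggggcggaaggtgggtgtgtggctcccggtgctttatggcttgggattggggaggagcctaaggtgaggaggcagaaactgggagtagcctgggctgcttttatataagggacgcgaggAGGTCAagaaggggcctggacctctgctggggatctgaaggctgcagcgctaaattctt
Rara, last window: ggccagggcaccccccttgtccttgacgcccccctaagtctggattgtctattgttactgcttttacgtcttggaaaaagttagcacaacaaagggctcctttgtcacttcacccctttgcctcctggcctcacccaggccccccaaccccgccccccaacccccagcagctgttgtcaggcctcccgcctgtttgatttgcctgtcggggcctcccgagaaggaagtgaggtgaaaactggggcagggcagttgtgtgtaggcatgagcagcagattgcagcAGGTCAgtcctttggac

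Genes around the receptors were read from 5 lists, in which 0 members passed the adjusted test (background 0%). Over all tested genes, 59.4% had a log2 fold change above 0, with a median of 0.048. Of 9 other receptors that pair with RXR, 2 could be tested. Rarg, the retinoic acid receptor gamma gene, stood at 14.8 ± 3.47 CPM in TBT and 14.5 ± 1.45 CPM in vehicle (SD, n = 8 and 7 here and for the genes that follow; log2 fold change 0.0032), and Nr4a1, an orphan receptor gene of patrolling monocytes, at 53.8 ± 27.0 CPM in TBT and 49.99 ± 23.8 CPM in vehicle (0.11). The other 7 held too few counts, among them Rxrg, the RXR gamma gene, with 15 counts over all libraries. All 11 coactivator genes were tested, 8 of them with values above 0 (median log2 fold change 0.064). Kat2b, a histone acetyltransferase gene, stood at 31.6 ± 4.55 CPM in TBT and 26.6 ± 3.06 CPM in vehicle (0.24, edgeR adjusted p = 0.731), Ncoa2 at 0.16, Ncoa3 at -0.14 and Ppargc1a at -0.13.

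Of 8 corepressor genes, 4 had log2 fold changes above 0 (median 0.010). Nrip1, which encodes a ligand-dependent corepressor, stood at 44.4 ± 7.87 CPM in TBT and 36.5 ± 2.78 CPM in vehicle (0.27, edgeR adjusted p = 0.727), Tbl1xr1 at 0.11, Gps2 at -0.18 and Tbl1x at -0.037. Of 20 genes of ligand supply and breakdown, 5 were tested, all with values above 0 (median 0.23). Rdh10, which encodes a retinol dehydrogenase, stood at 3.95 ± 0.783 CPM in TBT and 2.81 ± 0.660 CPM in vehicle (0.48, edgeR adjusted p = 0.725), and the fatty acid and retinoic acid carrier gene Fabp5 at 1.68 ± 0.421 CPM in TBT and 1.22 ± 0.257 CPM in vehicle (0.42). Of 20 known target genes 13 were tested, Nr1h3 among them, and 11 had values above 0 (median 0.15), where 59.4% of all tested genes did (median 0.048). Whether any list differs from that background was not tested. The lipid droplet gene Plin2 had a log2 fold change of 0.42 and Klf9 0.31, while the lipid synthesis regulator gene Srebf1 stood at -0.12 and Mylip, a ubiquitin ligase gene for the LDL receptor, at -0.088. In these lists 3 genes had an unadjusted edgeR p under 0.05, each higher in TBT. They were Kat2b of 11 tested coactivator genes, Nrip1 of 8 corepressor genes and Rdh10 of 5 ligand genes. Of the 2 tested receptors and the 13 tested target genes 0 did. Over all tested genes 6.33% had such a p in either direction, and 4.57% had it and were higher in TBT.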

How the data were processed

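Whole-blood RNA of 15 male mice was sequenced, 8 from the TBT group and 7 from the vehicle group, with an Illumina TruSeq Stranded Total RNA kit after RNeasy isolation and DNase treatment, per the labels' protocols. Per the submitters' processing notes, Trim Galore, HISAT2 and featureCounts were used with mm10; their versions, the annotation and the use of strand were not given in the sources used here. What the authors deposited is a table of raw whole-number counts per gene.

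Columns were matched to animals by description, and all 55536 gene identifiers were found in GENCODE M21 on GRCm38, from which merged exon lengths and coordinates were taken. Counts were used as deposited. Genes were kept by filterByExpr and compared with edgeR 4.0.16 in R 4.3.3 (TMM, robust glmQLFit and glmQLFTest, no covariate), with Benjamini-Hochberg adjustment over 13364 genes. SEs came from the F statistic. Log2 CPM used a prior count of 2. Correlation p-values used 100000 permutations. Libraries within a group were not copies of each other (chi-square per gene of at least 11.1). The mothers were exposed, and nothing in the labels says whether animals shared a litter or mother. The p-values take each animal as independent, and they may be too small if litters were shared.

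The receptors, gene lists, named genes and alternatives were chosen with earlier results of these data known. Named were all 10 receptors, of each list the 2 tested genes with the smallest p in each direction, the 2 closest genes of each tested receptor, and genes overlapping a receptor's exons on the other strand. Alternatives were RLE and upper-quartile factors, haemoglobin genes left out, no filter, DESeq2 1.42.0, limma-voom (limma 3.58.1), libraries left out and a replicate block. A gene among those most like Rara is not reported here.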

Additional observations from a re-analysis of the deposited data

Results flagged for a closer look

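Of 20 groups of values (10 receptors in TBT and in vehicle), 2 held an animal far from the others, by the gap to its nearest neighbour over the group's range. Chance alone gives about 1 in 20 such groups where values are normally distributed. That share does not apply to genes with counts near 0, such as Ppara. Ppara in TBT 1 stood at 2.08 CPM, with 0.386 CPM in the next TBT animal. Pparg in vehicle 3 (the animal with the tumor label) stood at 11.2 CPM, with 5.81 CPM in the next vehicle animal.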

How the results depend on the processing

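No alternative called any of the 8 tested receptors: over 184 recomputed fold changes (23 settings for each receptor) the lowest adjusted p was 0.0806, and 169 kept their direction. Nr1h2 and Thra stayed below 0 and Nr1h3 above 0 in all 23 settings, Nr1h2 between -0.34 and -0.16. Rxrb and Rara turned to 0.024 and 0.053 with limma-voom, and to 0.027 and 0.034 without TBT 2, TBT 8 and vehicle 6. With single libraries left out, Rxra ran from -0.20 to 0.026, Rxrb from -0.16 to -0.054, Pparg from -0.15 to 0.31, Ppard from -0.026 to 0.088 and Rara from -0.081 to 0.029, and the log2 difference of the Rxra to Rxrb ratio from -0.093 to 0.22. Over all genes, edgeR called 0 with any 1 library left out, 7 without the 3 libraries and 2 with no filter on low counts, DESeq2 called 19 and limma-voom 22, against 0 in edgeR over all libraries. The cause was not tested. Animal numbers were not taken to pair the animals, since 2 of 7 same-numbered pairs correlated above 0.1 in their deviations (from -0.23 to 0.51). With the number as a replicate block, edgeR called 0 genes and 0 receptors over animals 1 to 7 of each group, with Nr1h2 at -0.29 (edgeR adjusted p = 0.519). Mean levels over the 15 libraries moved by less than 1 SD for all 10 receptors when taken as CPM of all counts. Some single libraries moved further. On that scale Rxra in TBT 8 was 6.91 CPM in place of 13.1 CPM. Nr1h2 was lowest in TBT 2 and TBT 8 (11.3 and 17.3 CPM), and Ppard ran from 3.88 CPM in TBT 2 to 17.1 CPM in TBT 6. Depth limited Ppara and Vdr, which held 56 and 27 counts in all.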

Other observations

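Among the genes of ligand supply, singled out after their values were seen, the retinaldehyde dehydrogenase gene Aldh1a1 was abundant in every library, from 224 to 1628 CPM. It averaged 611 ± 503 CPM in TBT and 520 ± 112 CPM in vehicle (SD, n = 8 and 7; log2 fold change 0.23, edgeR adjusted p = 0.979). The related genes Aldh1a2 and Aldh1a3 held 71 and 21 counts over all libraries. Dhrs3, which encodes a retinaldehyde reductase, averaged 27.9 ± 23.8 CPM in TBT and 23.5 ± 6.65 CPM in vehicle (log2 fold change 0.21, edgeR adjusted p = 0.979).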
